A study of Mus musculus with 6 samples.

Results

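To describe accessible chromatin at the genes of MHC class I and antigen presentation, 10 genes were examined in mouse leukaemia cells that had or had not lost 1 allele of Usp18. The genes were H2-K1, H2-D1, B2m, Tap1, Tap2, Psmb8, Psmb9, Nlrc5, Ciita and Cd74. A peak of open chromatin was taken for a gene when the start site nearest to it belonged to that gene and lay within 100000 bp. This gave 83 of the 175929 peaks in the series, with at least 2 for each of the 10 genes. The rule uses names and distances and no measured value, although the genes were listed with earlier results of these data known. ATAC-seq was used, an assay in which a transposase cuts adapters into open DNA, so that sequenced ends, called tags, pile up where chromatin is open. The cells were Usp18+/f AE9a leukaemia cells with a tamoxifen-inducible Cre that had grown in recipient mice until these were sick. The mice then received oil, which left the genotype Usp18+/f, or tamoxifen, which activates the Cre and gives Usp18+/Δ. Spleen cells that were GFP+, Lin- and c-Kit+ were collected by sorting when 3 days had passed since the first injection, in 3 libraries a group (oil replicates 1, 2 and 4, and tamoxifen replicates 1, 3 and 4). Both groups carried the floxed allele, the Cre and AE9a, a truncated AML1-ETO fusion delivered to fetal liver cells by a retrovirus that also encodes GFP. No library here received tamoxifen without the floxed allele, so the drug and the lost allele cannot be told apart. The labels do not say whether each library came from its own mouse. The study's methods give 3 mice a group, sorted after 3 injections, for the set used for paired ATAC-seq. P-values measure the spread between libraries, which may be technical in part.

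MHC class I molecules show peptides from inside the cell to CD8+ T cells. H2-K1 and H2-D1 encode classical heavy chains and B2m their light chain. Peptides are cut by the proteasome, in which Psmb8 and Psmb9 are the interferon-induced catalytic subunits, and are pumped into the endoplasmic reticulum by the transporter of Tap1 and Tap2. Nlrc5 is the transactivator of class I promoters and Ciita that of class II promoters, while Cd74, the invariant chain, guides class II molecules. Class I promoters are known for an NF-kB site, an interferon-stimulated response element (ISRE) and the X and Y boxes on which Nlrc5 acts with RFX, CREB and NF-Y proteins. Usp18 restrains the type I interferon receptor, and many of these genes respond to interferon.

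The promoter sequences are shown because the start-site peaks lay on or beside them, and because they hold the letters of these known elements. Each is the stretch of 250 bases just upstream of a RefSeq start (GRCm38.p6, the same assembly as the mm10 of the files), given 5′ to 3′ on the strand of its gene. Capitals mark any match on either strand to GAAA and GAAA with any 2 bases between (ISRE core), GGG and TTCCC with any 2 bases between (NF-kB), TGACG (X2 box) or CCAAT (Y box, which reads ATTGG on the other strand). H2-K1 is at chr17:34000348-34000597 on the minus strand, H2-D1 at chr17:35262844-35263093, B2m at chr2:122147437-122147686, and the Tap1 stretch at chr17:34187306-34187555, the last 3 on the plus strand.
H2-K1: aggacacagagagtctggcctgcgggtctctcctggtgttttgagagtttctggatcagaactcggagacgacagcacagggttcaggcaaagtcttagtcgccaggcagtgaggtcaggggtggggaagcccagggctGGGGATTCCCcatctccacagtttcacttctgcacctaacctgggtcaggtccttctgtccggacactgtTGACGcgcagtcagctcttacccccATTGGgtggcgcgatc
H2-D1: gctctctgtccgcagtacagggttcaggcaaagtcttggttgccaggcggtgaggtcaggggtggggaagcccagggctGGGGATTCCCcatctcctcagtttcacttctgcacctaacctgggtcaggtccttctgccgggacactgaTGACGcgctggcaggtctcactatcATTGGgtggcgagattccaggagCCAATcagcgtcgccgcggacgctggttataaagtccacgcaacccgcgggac
B2m: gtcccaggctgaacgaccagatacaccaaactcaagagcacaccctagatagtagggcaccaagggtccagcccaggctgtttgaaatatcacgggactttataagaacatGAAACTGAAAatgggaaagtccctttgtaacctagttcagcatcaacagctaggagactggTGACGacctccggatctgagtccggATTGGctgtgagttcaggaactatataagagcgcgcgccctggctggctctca
Tap1: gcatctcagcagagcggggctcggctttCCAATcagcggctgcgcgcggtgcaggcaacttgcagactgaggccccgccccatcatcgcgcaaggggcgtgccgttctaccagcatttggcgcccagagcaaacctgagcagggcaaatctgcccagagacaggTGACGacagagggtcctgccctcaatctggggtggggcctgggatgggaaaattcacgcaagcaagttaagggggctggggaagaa

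H2-K1 and H2-D1 shared the NF-kB letters, at -111 to -102 and -171 to -162 (the base before the start being -1), and these occurred in 1.54% of 32817 upstream stretches in the RefSeq table. In H2-K1, H2-D1 and B2m alike, TGACG was followed by ATTGG after 20 bases. A pair in this order with 10 to 30 bases between stood in 0.640% of all stretches, and one with exactly 20 bases in 0.0914%. B2m alone of the 4 held an exact match to the ISRE core, at -139 to -130, against 2.97% of all stretches. This pattern is strict and misses an ISRE with other letters. The lack of a match in H2-K1, H2-D1 and Tap1 therefore does not show that they lack an ISRE. The Tap1 stretch held TGACG and CCAAT but not in this arrangement. It is also the promoter of Psmb9, whose start at 34187330 faces that of Tap1 at 34187556, and a peak of 206 bp assigned to Psmb9 lay wholly between them. The Psmb8 stretch held none of these letters and no peak. A match to letters is a description and no evidence that a factor was bound.

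The ISRE core was also found inside other peaks close to starts. Of the 36 peaks within 3000 bp of a start, 6 held it (16.7%), against 2.89% of 53465 such peaks on the chromosomes searched. Beside the B2m peak, these were the start-site peaks of Tap2, Tap1 and Psmb8, a peak 341 bp into Psmb9 and a peak at -2583 bp of Tap2 (a minus sign means before the start). The windows of 30 bases are shown because their letters recur. They lie at chr17:34204491-34204520 (plus strand), chr17:34187688-34187717 (minus), chr17:34198335-34198364 (minus) and chr17:34186985-34187014 (plus), with the core in capitals.
Tap2: gcagtgaagtGAAAGCGAAAgccgcgggac
Tap1: agaggaagaaGAAACCGAAAgccgacctcg
Psmb8: acaaggaagtGAAAGCGAAAgccacagtac
Psmb9: agtctagagtGAAAGCGAAAgcgctttgga

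The core read the same 10 letters in Tap2, Psmb8 and Psmb9. Of the 6 peaks, none (0) passed an adjusted p of 0.05 or an unadjusted p of 0.05, and their log2 fold changes lay between -0.39 and 0.00. Over all 1547 peaks near starts that held the core, 0.970% passed an adjusted p of 0.05, beside 0.950% of those without it. At an unadjusted p under 0.05 the shares were 6.46% and 6.41%, and the median log2 fold changes were -0.03 and -0.01.

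The libraries held 57.4 to 74.7 M tags (1 M is 1000000), of which 17.5 to 21.1 M fell in peaks. Counts were divided by DESeq2 size factors to give normalised tags. Across all peaks, tamoxifen replicate 4 correlated with the oil libraries at 0.960 to 0.964 and with the other tamoxifen libraries at 0.949, so the counts over the 83 peaks are also given without it. The sorted cells showed the labelled type: at the start of Kit, the gene of the sorted receptor, 747 to 764 normalised tags were found after oil and 738 to 855 after tamoxifen, whereas the neutrophil genes Ly6g, S100a8 and S100a9 had no peak within 3000 bp of a start. The start-site peak of Usp18 held 415 to 458 normalised tags after oil and 438 to 469 after tamoxifen. The floxed exons are not given in the sources used here, so the peaks do not check the deletion.

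None of the 83 peaks passed the test for a change. With DESeq2, 0 peaks were called at an adjusted p under 0.05 and a fold over 2, where 0.654% of all peaks were, and 0 passed an adjusted p of 0.05 alone, where 1.39% did. Edge cases were few as well, since 3 of the 83 (3.61%) had an unadjusted p under 0.05, against 9.02% of all peaks. By edgeR, 0 passed an adjusted p of 0.05, where 2.92% of all peaks did, and 5 had an unadjusted p under 0.05, where 17.6% did. The smallest adjusted p of DESeq2 was 0.246, at Cd74. In 5 peaks (6.02%) the 3 tamoxifen values all lay on one side of the 3 oil values, where 21.9% of all peaks were separated in this way. Of the 5, 2 were higher after tamoxifen, both at Cd74, and 3 lower, at H2-K1, H2-D1 and Tap2, beside 11.9% and 10.0% of all peaks. These shares describe the 83 peaks and were not tested against the rest.

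The 83 peaks were deeper than the series as a whole, with a median of 102 normalised tags a peak against 50.5, so a smaller change could be seen in them. The median log2 fold change was -0.03, against 0.00 over all peaks, with 37 peaks above 0 and 46 below. The extremes were -0.58 at Nlrc5 and 0.44 at Cd74. For 73 of the 83 the 95% interval of the log2 fold change stayed within 1 of 0, that is within a fold of 2, and for 38 it stayed within 0.5. For the remaining 10 peaks the interval reached a 2-fold change.

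Peak lists had been called per group before merging. Of the 83 peaks, 62 (74.7%) came from both lists, 17 (20.5%) from the oil list alone and 4 (4.82%) from the tamoxifen list alone. Over all peaks these shares were 71.4%, 17.4% and 11.2%. By annotation 35 of the 83 lay in introns, 20 between genes and 14 at promoters, and 36 lay within 3000 bp of a start.

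**Figure D1:**
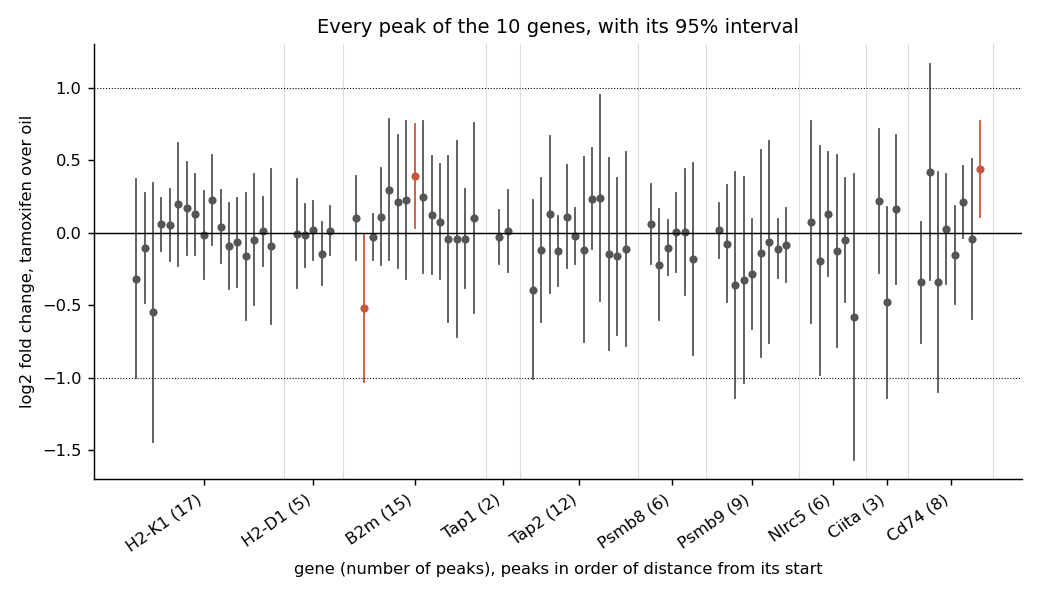
Log2 fold change of tamoxifen over oil (vertical axis) for each of the 83 peaks, in order of distance within each gene (horizontal axis). Points are DESeq2 estimates, bars their 95% intervals, dotted lines a 2-fold change, and red marks the 3 peaks with an unadjusted p under 0.05, 1 at Cd74 and 2 at B2m.

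Without tamoxifen replicate 4, larger shares of all peaks passed each threshold. Then 6 of the 83 peaks (7.23%) had an unadjusted p under 0.05, against 13.7% of all peaks, and 24 (28.9%) did not overlap, against 43.7%. Still 0 passed an adjusted p of 0.05, where 3.71% of all peaks did. Leaving out tamoxifen replicate 3 lowered the count at an unadjusted p to 0 (4.36% of all peaks) and leaving out oil replicate 1 or 2 to 1 each (5.42% and 5.36%). With 5 libraries separation is easier to reach, and the non-overlapping peaks numbered 10 to 24 when 1 library at a time was left out, beside 28.5% to 43.7% of all peaks.

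The accessible sites of the class I chains themselves, H2-K1, H2-D1 and B2m, numbered 37. At the H2-K1 promoter (chr17:34000288-34000494, centre 44 bp before the start), the oil libraries held 643, 588 and 603 normalised tags and the tamoxifen libraries 647, 684 and 577. The groups overlapped, with the highest and the lowest value both after tamoxifen, and the log2 fold change was 0.06 ± 0.09 (SE, n = 3 a group, 95% interval -0.12 to 0.24, DESeq2 adjusted p = 0.965). The H2-D1 promoter (chr17:35262861-35263117, 105 bp before the start) held 778, 758 and 695 after oil and 775, 775 and 701 after tamoxifen. These ranges were nearly the same, with a log2 fold change of 0.01 ± 0.09 (SE, interval -0.16 to 0.18, adjusted p = 0.996). B2m, at chr2:122147498-122147778, held 873, 781 and 801 after oil and 796, 833 and 777 after tamoxifen. It was the deepest of the 83 peaks and its groups overlapped as well, with a log2 fold change of -0.03 ± 0.08 (SE, interval -0.19 to 0.13, adjusted p = 0.988). A change beyond 1 in either direction on the log2 scale lay far outside all 3 intervals.

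Per kb of peak these 3 promoters were alike and among the most open sites of the series. After oil they held 2952 ± 137 (H2-K1), 2912 ± 173 (B2m) and 2893 ± 169 (H2-D1) normalised tags per kb (SD, n = 3), and their ranges over the 6 libraries overlapped. They stood between the 94.9 and 95.3 percentiles of peaks within 3000 bp of a start. The next in order were the shared promoter of Psmb9 at 2516 ± 150 and the Tap1 peak at 2334 ± 82.2, whose ranges overlapped each other but not those of the class I chains. Tap2 (1196 ± 58.3) and Psmb8 (902 ± 17.9) followed, each clear of its neighbours. Cd74 (384 ± 32.0) and Ciita (314 ± 55.6) overlapped, and Nlrc5 (96.7 ± 3.91) was lowest, but the peaks taken for Ciita and Nlrc5 lay 12277 and 5780 bp into the genes and are no promoters. This order takes only the peak nearest each start. Other peaks of Psmb8 and Tap2 held more per kb after oil, with 2166 at -465 bp of Psmb8 and 1511 at 1598 bp of Tap2. At most 3 tags per position were counted, which holds down the deepest peaks most.

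**Figure D2:**
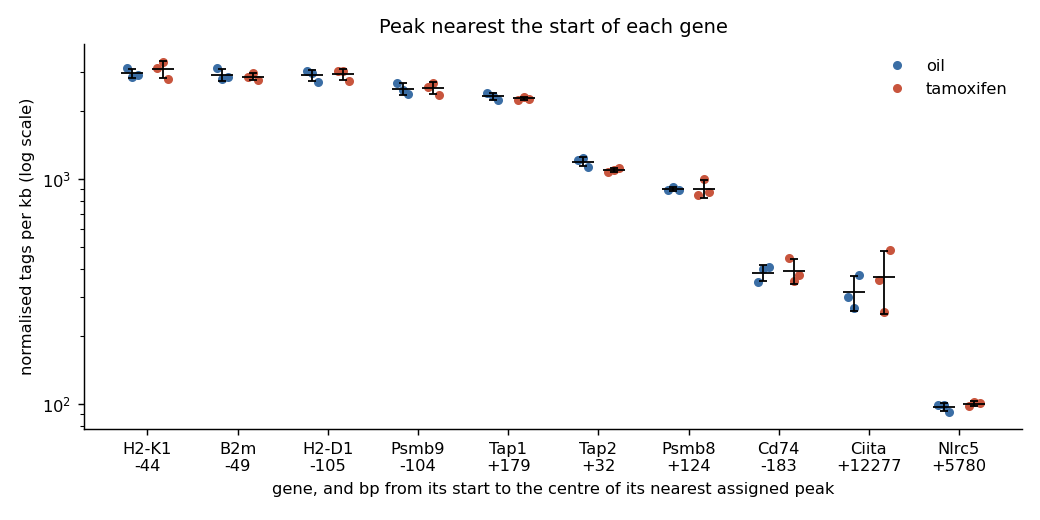
Normalised tags per kb (vertical axis, log scale) in the peak nearest the start of each gene (horizontal axis, with bp from the start). Dots are libraries, black bars the mean and SD of 3, and the oil and tamoxifen groups overlap at each gene except Tap2.

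Upstream of H2-D1 a second promoter peak (centre 357 bp before the start) was the 1 with the smallest p for this gene. It held 368, 358 and 358 normalised tags after oil and 326, 352 and 304 after tamoxifen, so that each tamoxifen value lay below each oil value. The difference was small, with a log2 fold change of -0.15 ± 0.11 (SE, DESeq2 adjusted p = 0.820). At H2-K1 the smallest p stood at the 3′ end (4435 bp), where oil gave 169, 141 and 173 and tamoxifen 206, 199 and 160. The groups overlapped through tamoxifen replicate 4 (log2 fold change 0.23 ± 0.16, SE, adjusted p = 0.779). H2-K1 and H2-D1 are near-identical members of a multigene family, and how reads that fit several copies were treated is not given in the sources used here, so tags at these genes may be split between copies.

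Peaks did not stop at the promoters of these genes. Peaks covered 66.8% of the RefSeq span of B2m, more than in 99.9% of 19304 protein-coding genes of at least 2000 bp, and 40.5% of H2-K1 and 37.3% of H2-D1 (percentiles 97.7 and 97.1). All 11 peaks in the B2m span and all 6 in that of H2-K1 were assigned to the gene. Of 6 peaks in the H2-D1 span only the promoter peak was, and the other 5 have H2-L, a class I gene annotated at the same place, as nearest start. These 5 had log2 fold changes of -0.26 to 0.19. By DESeq2, 0 of the 5 had an unadjusted p under 0.05, where 9.02% of all peaks did. Over the 15 B2m peaks the median log2 fold change was 0.10, and over the 17 of H2-K1 it was -0.02.

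**Figure D3:**
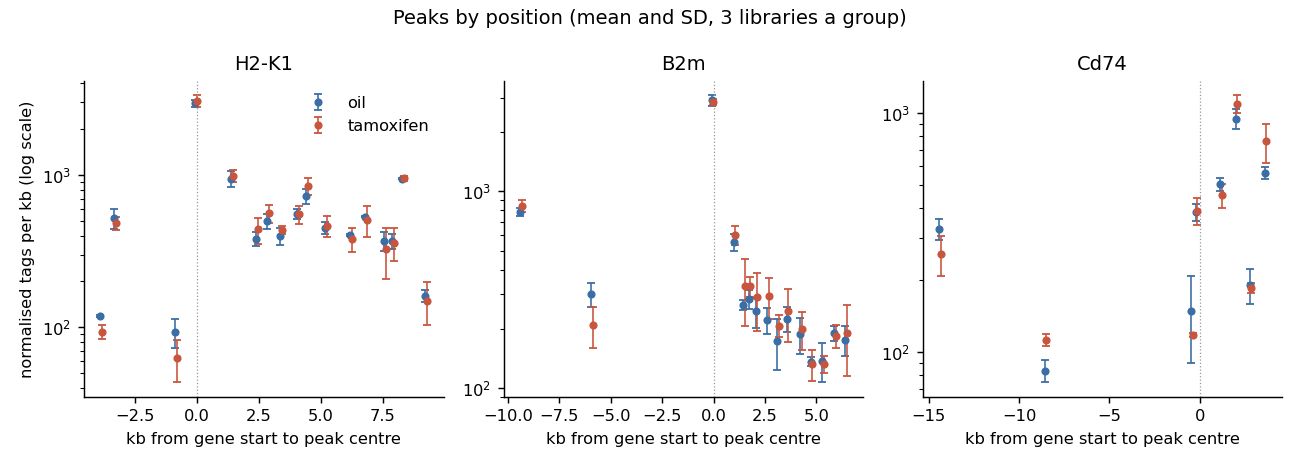
Normalised tags per kb (vertical axes, log scale) against kb from the gene start to the peak centre (horizontal axes) at H2-K1, B2m and Cd74. Points and bars are the mean and SD of 3 libraries; in B2m and H2-K1 the promoter stands highest and a train of lower peaks runs through the gene and past its end.

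Of the 15 peaks assigned to B2m, 2 (13.3%) had an unadjusted p under 0.05, against 9.02% of all peaks, and they differed in opposite directions. In intron 1, 2638 bp from the start, a broad peak of 616 bp held 127, 122 and 161 normalised tags after oil and 149, 228 and 164 after tamoxifen. The groups overlapped and tamoxifen replicate 3 stood highest (log2 fold change 0.39 ± 0.18, SE, DESeq2 adjusted p = 0.461). Without that library the log2 fold change was 0.19. The second, at -5905 bp in an intron of Patl2 (the transcript NM_026251), held 75.6, 58.0 and 75.3 after oil and 36.7, 49.0 and 59.6 after tamoxifen. Here only tamoxifen replicate 4 reached into the oil range (log2 fold change -0.52 ± 0.26, SE, DESeq2 adjusted p = 0.538).

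For peptide supply, 29 peaks belonged to Tap1, Tap2, Psmb8 and Psmb9. By DESeq2, 0 of them had an unadjusted p under 0.05, where 9.02% of all peaks did. The promoter that Psmb9 shares with Tap1 (chr17:34187332-34187537) held 552, 513 and 491 normalised tags after oil and 530, 554 and 489 after tamoxifen. Its groups covered almost the same range, with a log2 fold change of 0.02 ± 0.10 (SE, interval -0.17 to 0.21, adjusted p = 0.995). The Tap1 peak with the ISRE core, 179 bp into the gene, held 490, 475 and 456 after oil and 458, 472 and 461 after tamoxifen. All 6 values lay within 456 to 490 (log2 fold change -0.03 ± 0.10, SE, interval -0.22 to 0.16, adjusted p = 0.989).

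At the start of Tap2 (chr17:34204398-34204624), the other subunit of the transporter, oil gave 275, 282 and 257 normalised tags and tamoxifen 244, 250 and 253. Each tamoxifen value lay below each oil value, although the change of -0.13 ± 0.12 on the log2 scale (SE, interval -0.37 to 0.12) did not pass (DESeq2 adjusted p = 0.897). Of the start-site peaks this was the 1 whose groups did not overlap, where 19.1% of all peaks within 3000 bp of a start did not. In an intron of Tap2 at 6326 bp, the peak with the smallest p for this gene, oil gave 116, 117 and 111 and tamoxifen 114, 150 and 141, higher in tamoxifen replicates 3 and 4 only (log2 fold change 0.23 ± 0.18, SE, adjusted p = 0.819).

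Psmb8, whose product replaces a constitutive subunit of the proteasome, had its deepest peak 465 bp before the start, with 516, 539 and 505 normalised tags after oil and 447, 502 and 506 after tamoxifen. The groups overlapped by a narrow margin (log2 fold change -0.10 ± 0.10, SE). The peak nearest the start, at 124 bp in the first exon, held 197, 205 and 198 after oil and 188, 222 and 194 after tamoxifen (log2 fold change 0.00 ± 0.14, SE, DESeq2 adjusted p = 0.999). The smallest p of this gene was at -1146 bp, in the last exon of Tap1, at -0.22 ± 0.20 on the log2 scale (SE, adjusted p = 0.867).

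Psmb9 had 8 of its 9 peaks below 0 on the log2 fold change scale. The exception was the shared promoter. The median of the 9 was -0.11. In intron 3, 3355 bp from the start, oil gave 130, 130 and 134 normalised tags and tamoxifen 96.7, 87.5 and 140. Tamoxifen replicate 4 exceeded all oil libraries while the other two lay below them (log2 fold change -0.28 ± 0.19, SE, DESeq2 adjusted p = 0.769). Without replicate 4 the log2 fold change was -0.52, with an adjusted p of 0.145. Summed over its 9 peaks, Psmb9 was the only 1 of the 10 genes whose groups did not overlap, with a mean of 1559 ± 61.9 normalised tags (SD, n = 3) in the oil libraries and 1472 ± 28.6 in the tamoxifen libraries. That is a log2 ratio of -0.08, with an exact two-sided permutation p = 0.1, the smallest that 20 assignments allow, and 0.667 after Benjamini-Hochberg adjustment over the 10 genes.

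The sums of the other genes overlapped between the groups. B2m summed to 2051 ± 167 after oil and 2144 ± 257 after tamoxifen, H2-K1 to 3114 ± 151 and 3176 ± 288, and H2-D1 to 2057 ± 112 and 2030 ± 128 (SD, n = 3). Over all 83 peaks the sum was 13114 ± 248 after oil and 13139 ± 605 after tamoxifen, a log2 ratio of 0.00 (exact permutation p = 1). In the 10 genes the log2 ratio ran from -0.08 at Psmb9 to 0.09 at Cd74, and 0.1 is the smallest p that this design can give.

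The transactivators had no peak at their main starts. Nlrc5 had 6 peaks, all in introns and 5780 to 14147 bp from the start, and Ciita 3, 12277 to 14866 bp from it. Their levels were low, at 12.7 to 94.0 normalised tags in the group means, which leaves wide intervals. The Nlrc5 peak nearest the start held 27.0, 26.8 and 25.1 after oil and 26.6, 27.9 and 27.5 after tamoxifen, with an interval of -0.63 to 0.77 on the log2 scale. For Ciita the peak nearest the start held 65.1, 58.0 and 81.5 after oil and 76.8, 55.7 and 105 after tamoxifen, overlapping fully (log2 fold change 0.22 ± 0.25, SE). The smallest p stood at 14147 bp for Nlrc5 (log2 fold change -0.58 ± 0.50, SE, DESeq2 adjusted p = 0.864) and at 13451 bp for Ciita (-0.48 ± 0.34, SE, adjusted p = 0.780). At these 2 peaks a 2-fold change was not detectable at this depth.

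Most peaks inside these genes are nearest to the start of something else. In the RefSeq span of Nlrc5 lay 30 peaks, of which 24 were assigned elsewhere, 16 of them to the microRNA gene Mir7072 within an intron, 5 to Cpne2 and 3 to 9330175E14Rik. The span of Ciita held 12, with 9 assigned to Dexi. Taken by position after the values were seen, 0 of these 42 peaks passed an adjusted p of 0.05 by DESeq2, where 1.39% of all peaks did, and 3, all in Nlrc5, had an unadjusted p under 0.05, where 9.02% did. In 5 of the 30 peaks of the Nlrc5 span the groups did not overlap, 2 higher and 3 lower after tamoxifen, where 21.9% of all peaks did not.

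The largest change in the Nlrc5 span stood at a shallow peak 56862 bp from its upstream end, assigned to Mir7072. It held 49.6, 48.8 and 46.1 normalised tags after oil and 25.6, 13.9 and 41.4 after tamoxifen. Each tamoxifen value lay below each oil value, without passing the test (log2 fold change -0.85 ± 0.35, SE, DESeq2 adjusted p = 0.322). A peak at 90411 bp, assigned to Cpne2, differed in the opposite direction (0.49 ± 0.24, SE, adjusted p = 0.524).

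The closest to the threshold lay over the far upstream end of Nlrc5 (chr8:94434204-94434410), where predicted RefSeq transcripts of the gene begin at 94434335. It held 228, 241 and 235 normalised tags after oil and 337, 328 and 280 after tamoxifen. Each tamoxifen value exceeded each oil value (log2 fold change 0.42 ± 0.13, SE, DESeq2 adjusted p = 0.0506). It passed an adjusted p of 0.05 in 4 of the 14 alternative fits, with edgeR (0.0117), with start-near and distant peaks fitted apart (0.00733), with library totals as size factors (0.0399) and without tamoxifen replicate 4 (0.00545). Over all 14 its adjusted p ran from 0.00545 to 1.00. The non-coding gene 9330175E14Rik spans the same place, and ATAC-seq has no strand, so the 2 cannot be told apart. This peak is not among the 83.

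**Figure D4:**
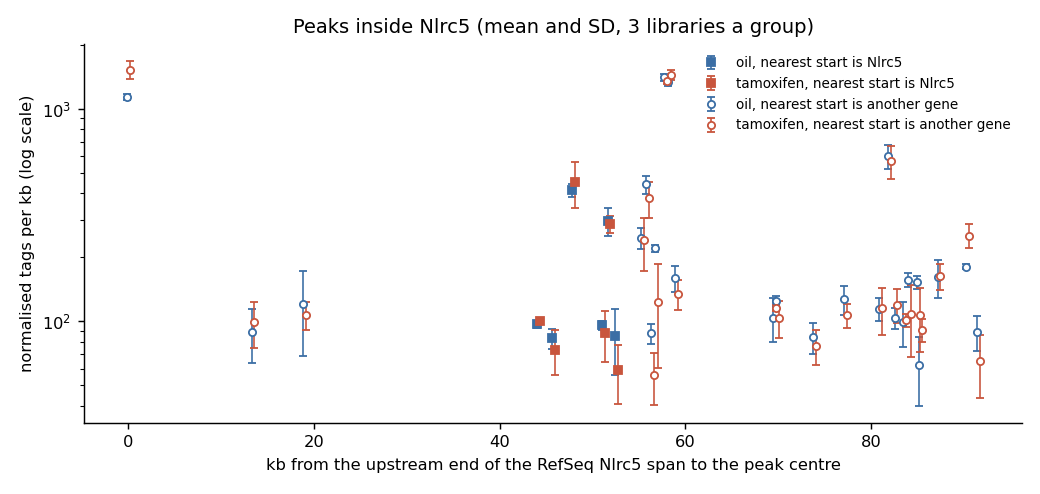
Normalised tags per kb (vertical axis, log scale) of the 30 peaks in the RefSeq span of Nlrc5, by kb from its upstream end (horizontal axis), as mean and SD of 3 libraries. Filled squares are the 6 peaks with Nlrc5 as nearest start and open circles the other 24; the first circle, at the upstream end, differs by 0.42 on the log2 scale and is 1 of 5 peaks in the span whose groups do not overlap.

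Cd74, the partner of class II rather than class I molecules, had 8 peaks and the smallest p of all 83. In intron 1, 3636 bp from the start, oil gave 135, 125 and 139 normalised tags and tamoxifen 152, 218 and 172. Each tamoxifen value exceeded each oil value (log2 fold change 0.44 ± 0.17, SE, interval 0.11 to 0.77, DESeq2 adjusted p = 0.246, edgeR adjusted p = 0.0790). It kept its direction when any 1 library was left out, at 0.29 (without tamoxifen replicate 3) to 0.55. It was the only 1 of the 47 peaks beyond 3000 bp from a start that held TGACG followed by ATTGG at 10 to 30 bases, an arrangement in 0.126% of all such peaks on the chromosomes searched. The promoter, 183 bp before the start, differed less, at 92.7, 106 and 108 after oil and 119, 94.1 and 99.6 after tamoxifen (log2 fold change 0.03 ± 0.19, SE, adjusted p = 0.996). Summed over the 8 peaks, Cd74 held 823 ± 25.2 after oil and 877 ± 34.1 after tamoxifen (SD, n = 3, exact permutation p = 0.2).

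**Figure D5:**
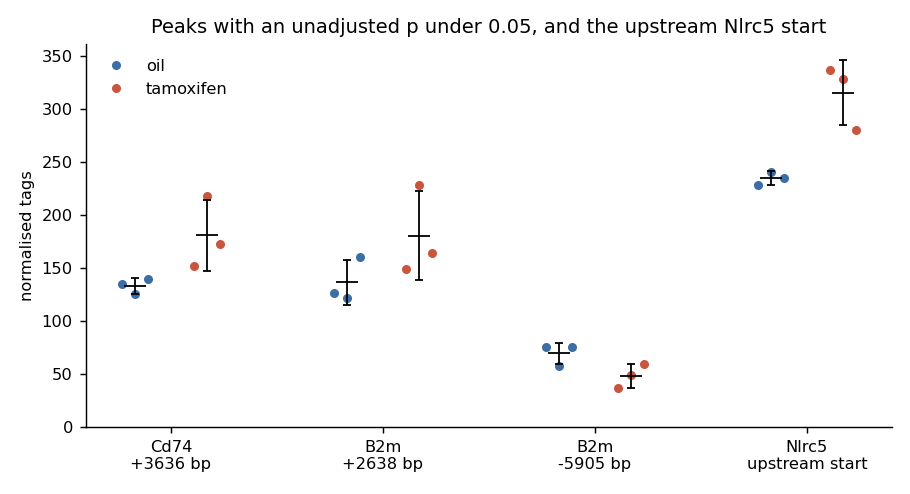
Normalised tags (vertical axis) in each library at the 3 peaks of the 83 with an unadjusted p under 0.05, and at the upstream end of Nlrc5, which is not among them. Dots are libraries and black bars the mean and SD of 3; the groups are apart at Cd74 and at the Nlrc5 end and overlap at both B2m peaks.

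Other genes of the pathway gave 257 peaks from 40 of 43 genes, and H2-T22, H2-M2 and Rfxank had none. By DESeq2, 0 were called at an adjusted p under 0.05 and a fold over 2, where 0.654% of all peaks were. An adjusted p of 0.05 alone was passed by 1 of the 257, where 1.39% of all peaks passed. That peak lay at -15424 bp of H2-T3, the non-classical gene of the thymus leukaemia antigen, between genes at chr17:36205443-36205707. It held 142, 138 and 142 normalised tags after oil and 223, 299 and 201 after tamoxifen, and rose by 0.77 ± 0.16 on the log2 scale (SE, adjusted p = 0.000720). Without tamoxifen replicate 3 it no longer passed, and 0 of the 257 did, where 0.358% of all peaks did. A neighbouring peak at -15796 bp of H2-T3 rose from 58.6 to 94.2 in the group means without passing (log2 fold change 0.69 ± 0.23, SE, adjusted p = 0.121).

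By group, 6 of 79 peaks of class I like and non-classical genes had an unadjusted p under 0.05, 2 of 31 for peptide loading, 0 of 13 for the other proteasome genes and 2 of 58 for the promoter factors, against 9.02% of all peaks. In the class II group it was 11 of 76 (14.5%), 10 higher and 1 lower, beside 6.18% and 2.84% of all peaks, with 0 at an adjusted p of 0.05. The start-site peaks of H2-Aa, H2-Ab1 and H2-Eb1, the classical class II chains, were named after their values were seen. H2-Aa held 104, 94.1 and 105 normalised tags after oil and 161, 146 and 115 after tamoxifen (log2 fold change 0.47, DESeq2 adjusted p = 0.275). H2-Eb1 held 72.8, 92.2 and 103 and then 140, 143 and 110 (0.54, adjusted p = 0.191). Neither overlapped, while H2-Ab1, at means of 74.5 and 103, did through tamoxifen replicate 4 (0.47, DESeq2 adjusted p = 0.468). Among all peaks within 3000 bp of a start, 19.1% did not overlap between the groups. In the class II group 19 of 76 peaks did not, where 21.9% of all peaks did not. Of these 19, 14 were higher and 5 lower after tamoxifen, beside 11.9% and 10.0% of all peaks. Without tamoxifen replicate 4, 3.71% of all peaks passed an adjusted p of 0.05 by DESeq2, 2.29% higher and 1.43% lower. Of the 257 peaks 6 did, 5 higher and 1 lower. The lower one lay in intron 3 of Tapbp (5191 bp), whose product tapasin loads peptides onto class I molecules, at -0.58 on the log2 scale (adjusted p = 0.00102). With all 6 libraries it held 357, 332 and 347 normalised tags after oil and 251, 208 and 338 after tamoxifen (-0.37 ± 0.15, SE, adjusted p = 0.271). The 5 higher were both H2-T3 peaks, the start-site peaks of H2-Aa (0.0436) and H2-Eb1 (0.0420) and a peak at -5466 bp of H2-Ab1 (0.0465).

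Sums over markers of other cells are given beside these values and were not tested. In the macrophage, dendritic cell, erythroid, B cell, T cell and neutrophil lists, 0 peaks passed an adjusted p of 0.05 by DESeq2. Summed over peaks within 3000 bp of a start, 4 of 5 macrophage genes gave 1747 to 1850 normalised tags after oil and 1858 to 1992 after tamoxifen, with Csf1r at no peak. For 3 of 6 dendritic cell genes the sums were 1316 to 1391 and 1155 to 1241, with Xcr1, Clec9a and Siglech at no peak. The 4 erythroid genes gave 4405 to 4665 and 4155 to 4236. B cell genes (3 of 6, with Cd79b, Ms4a1 and Pax5 at no peak) overlapped, at 733 to 833 and 711 to 886, as did T cell genes (3 of 5, with Cd3d and Cd2 at no peak) at 440 to 568 and 430 to 485. The 4 progenitor genes gave 5528 to 5751 and 5589 to 6150, but 1 of them, Cd34, which encodes a surface protein of stem and progenitor cells, differed. Its start-site peak held 73.9, 92.6 and 117 normalised tags after oil and 265, 333 and 212 after tamoxifen, and it rose by 1.50 ± 0.19 on the log2 scale (SE), past an adjusted p of 0.05 by DESeq2. For the neutrophil list, 1 gene of 4 gave sums of 46.3 to 64.1 and 62.4 to 78.0. In such bulk samples fewer cells of a type and less open chromatin per cell cannot be told apart. The part of these cells, and of the Cd34 difference, in the class II and Cd74 values was not tested.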

How the data were processed

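Per the file headers and the study's methods, the authors mapped ATAC-seq reads to mm10 with Bowtie2, called peaks with HOMER, merged the lists of the 2 groups and counted tags. The authors deposited tags without scaling, an estimated count that moves by 0.5 and takes no more than 3 tags from a position. Their score for each peak, also deposited, was not used, and their nearest start site was. Versions are not given in the sources used here.

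Tags were rounded and fitted over all 175929 peaks with DESeq2 1.42.0 (R 4.3.3; Wald test of tamoxifen against oil, Benjamini-Hochberg adjustment over all peaks). Intervals are the estimate ± the normal 95% bound. edgeR 4.0.16 (robust quasi-likelihood) was the alternative test, and the fits were tested on simulated data. Sums per gene were compared by an exact two-sided permutation test. For each gene the peak nearest the start, the peak with the smallest p and each peak at an adjusted p under 0.05 were named; pathway genes were named at an adjusted p under 0.05. Motifs were searched on both strands. The genes, lists and rules were chosen with earlier results of these data known. Replicate numbers 1 and 4 occur in both groups, but libraries with the same number did not deviate together (correlations -0.0440 and 0.0508), so they were not paired.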

Additional observations from a re-analysis of the deposited data

How the results depend on the processing

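No peak of the 83 passed an adjusted p of 0.05 in any of the fits, with other size factors, edgeR, a filter on low tags, separate fits or fewer libraries, and none passed 0.1 with DESeq2 on all 6 libraries, while edgeR gave 0.0790 at Cd74. Without 1 library DESeq2 gave no adjusted p for 3 to 18 of the 83, or 0 without tamoxifen replicate 4. The count at an unadjusted p under 0.05 was 5 with edgeR, where 17.6% of all peaks passed. It was 1 of the 36 peaks within 3000 bp, where 6.41% of all such peaks passed. Without 1 library it was 0 to 6, beside 4.36% to 13.7% of all peaks. Non-overlapping peaks numbered 10 to 24 without 1 library, beside 28.5% to 43.7% of all peaks. The median log2 fold change was 0.00 for peaks within 3000 bp (0.00327) and within 10000 bp (0.00287), and -0.0506 to 0.00990 without 1 library.

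With the replicate block on the 4 libraries numbered 1 and 4, 0 of the 83 peaks had an unadjusted p under 0.05 and 0 pathway peaks passed an adjusted p of 0.05, as without the block on the same 4 libraries (0 and 0). The block changed no other call. Among all peaks 0.828% had an unadjusted p under 0.05 with the block and 2.13% without it. Pathway peaks past an adjusted p of 0.05 numbered 5 with edgeR, where 2.92% of all peaks passed. Of these, 1 had a fold over 2 (H2-T10, at -2397 bp), where 1.03% of all peaks did. The count was 0 within 3000 or 10000 bp. It was 0 to 6 without 1 library, where 0.358% to 3.71% of all peaks passed.

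Near 0, signs turned. With the block and on the same 4 libraries without it, the start-site log2 fold changes were -0.0293 and -0.0270 for H2-K1, -0.0557 and -0.0557 for Psmb8, and -0.0340 and -0.0337 for Psmb9. H2-D1 turned to -0.00025 with the block and -0.000275 with total tags in peaks, where Psmb8 gave -0.00992 and the sum over the 83 peaks a log2 ratio of -0.0109. Without 1 library, start-site values ran from -0.0348 to 0.0627 for H2-D1, -0.0620 to 0.0201 for B2m, -0.0688 to 0.0492 for Psmb8, -0.0235 to 0.0657 for Psmb9, -0.0359 to 0.414 for Ciita and -0.0856 to 0.0954 for Cd74. The cause was not tested. Depth limits the introns of Nlrc5 and Ciita most.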
